A study of Mus musculus with 6 samples.

Results

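Crb3, Ocln, Cldn1, Cldn3, Cldn4, Cldn7, F11r, Tjp1 and Tjp3 are 9 mouse genes of the tight junction and of apical polarity. They were chosen by name, as the probes whose gene name in the array files equals 1 of these symbols, and each had 1 probe, so that 9 of the 19594 names on the array are described here. All 9 passed the filter on dim probes and were tested. RNA from cells with a short hairpin against Snail (shSnail) or against Loxl2 (shLoxl2) was compared with RNA from control cells with a hairpin against GFP (shGFP), all in the mouse line that the series title calls HACA. Every array was a 2-colour Agilent array with shGFP RNA in 1 channel, so that the controls carried a hairpin too. There were 2 shSnail arrays, where the red dye Cy5 marked shSnail RNA, and 4 shLoxl2 arrays, a Cy3 and a Cy5 array for each of 2 replicate numbers, which gives n = 2 for shSnail and n = 2 for shLoxl2. The labels do not say whether the hairpins were carried by clones or pools, or whether replicates were grown separately, so that the p-values may measure technical spread only.

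Tight junctions seal the space between epithelial cells near their apical side. Claudins, occludin and junctional adhesion molecules span the membrane there, and the ZO scaffold proteins tie them to actin, while the Crumbs, Par and Scribble complexes set which side of the cell is apical. Snail, the zinc-finger repressor encoded by Snai1, is known to bind E-box sequences and to repress epithelial genes. Loxl2 is a lysyl oxidase-like enzyme that has been described as a partner of Snail in carcinoma cells.

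The promoters are shown first, because the E-box is the sequence that Snail is known to bind and because 5 of the 9 genes changed in at least 1 of the 3 comparisons below. Each line gives the 250 bases before a transcript start, 5′ to 3′ on the gene's own strand, from RefSeq (GRCm38.p6). Capitals mark the E-box letters CAGGTG or their reverse complement CACCTG, which were searched for on both strands with no overlap between matches. Crb3, the small Crumbs protein of the apical membrane, lies on the plus strand (first listed start, chr17:57061951-57062200), and Ocln, which encodes occludin, lies on the minus strand (second listed start, chr13:100552499-100552748). The claudin genes are Cldn1 (minus strand, chr16:26371840-26372089) and Cldn7 (plus strand, second listed start, chr11:69965171-69965420). Tjp1, which encodes ZO-1, is on the minus strand (chr7:65371245-65371494).
Crb3: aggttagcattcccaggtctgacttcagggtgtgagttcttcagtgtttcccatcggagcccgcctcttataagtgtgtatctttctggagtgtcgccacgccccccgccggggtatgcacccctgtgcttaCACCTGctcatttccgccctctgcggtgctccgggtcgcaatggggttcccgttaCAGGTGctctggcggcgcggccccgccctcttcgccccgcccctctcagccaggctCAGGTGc
Ocln: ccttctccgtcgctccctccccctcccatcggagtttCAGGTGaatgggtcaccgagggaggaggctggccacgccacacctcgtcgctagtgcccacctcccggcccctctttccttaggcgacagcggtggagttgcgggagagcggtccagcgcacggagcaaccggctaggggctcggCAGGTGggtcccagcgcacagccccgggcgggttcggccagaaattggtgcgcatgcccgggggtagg
Cldn1: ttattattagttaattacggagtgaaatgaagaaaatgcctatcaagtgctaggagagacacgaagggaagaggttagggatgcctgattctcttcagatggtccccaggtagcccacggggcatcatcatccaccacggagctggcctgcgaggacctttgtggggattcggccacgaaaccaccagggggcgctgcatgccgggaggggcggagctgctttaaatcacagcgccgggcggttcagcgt
Cldn7: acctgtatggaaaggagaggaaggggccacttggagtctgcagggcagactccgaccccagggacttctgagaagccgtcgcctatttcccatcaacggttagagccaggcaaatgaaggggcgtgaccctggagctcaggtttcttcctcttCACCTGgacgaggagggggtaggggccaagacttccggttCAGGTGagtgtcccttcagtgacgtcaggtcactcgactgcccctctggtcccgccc
Tjp1: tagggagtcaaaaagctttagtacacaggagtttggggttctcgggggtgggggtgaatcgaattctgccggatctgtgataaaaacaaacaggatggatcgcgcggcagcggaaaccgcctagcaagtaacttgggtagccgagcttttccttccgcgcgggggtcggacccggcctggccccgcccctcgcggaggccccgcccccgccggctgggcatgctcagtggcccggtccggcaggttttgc

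In a window of 300 bases, from 250 before to 50 after the start, 20.2% of the 32851 mouse promoters in RefSeq held at least 1 such E-box. Among genes, 22.6% of 27025 had 1 in at least 1 listed promoter, and 7 of the 9 genes described here did. Crb3 held 4, which was the case for 18 promoters, or 0.0548% of all, and both listed starts of Crb3 are among those 18 because their windows overlap. Its E-boxes began at positions -118, -63 and -7 from the first listed start, as printed above, and at position 26 after it. Ocln (second start), Cldn7 (second start) and Cldn4 held 2 each, and Cldn3, Tjp3 and F11r held 1. The first listed start of Ocln held 1, at position 8 after it, and that of Cldn7 held 0. For both genes the start with more matches is the one printed above. No match was found in the windows of Cldn1 and Tjp1. These matches describe letters only, and no binding was measured.

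**Figure D1:**
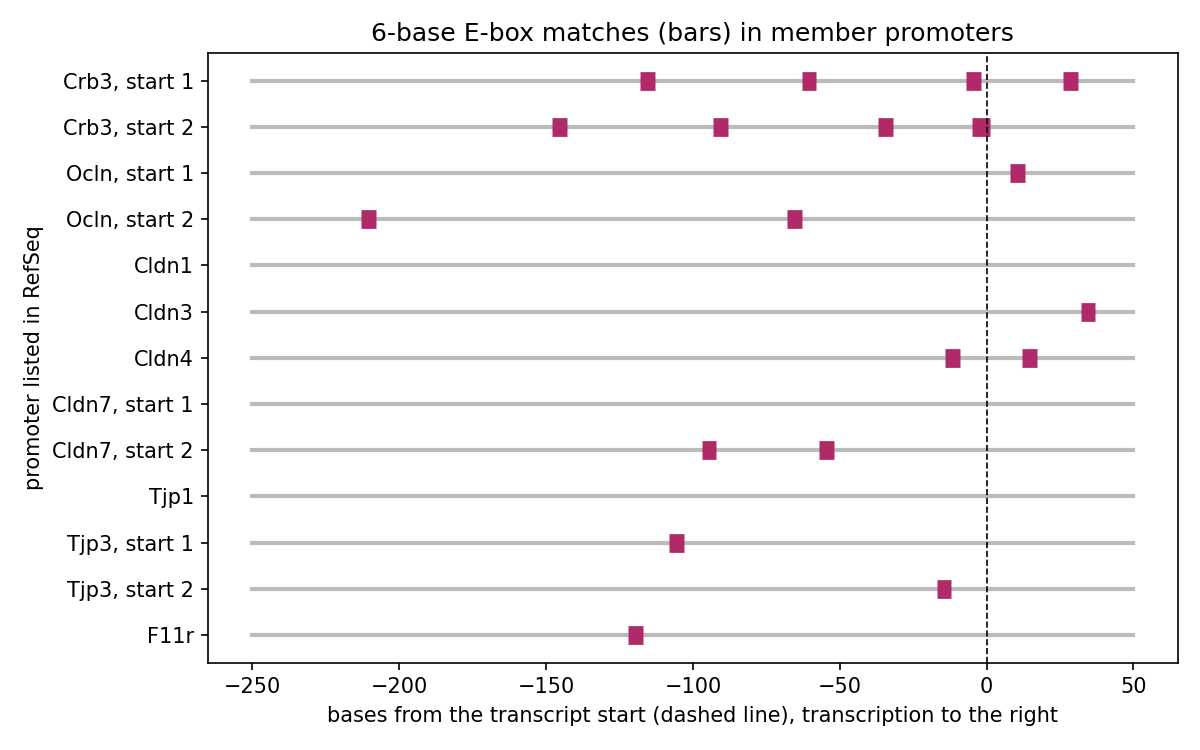
Positions of the 6-base E-box letters (bars) from 250 bases before to 50 bases after each RefSeq transcript start, in bases from the start (dashed line), for the 13 listed promoters of the 9 genes. Crb3 held 4 matches in each of its overlapping windows, and the windows of Cldn1 and Tjp1 held none.

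The quality of the arrays bears on every value below. Of the 20868 probes, 85.2% to 92.3% by array were well above background in red and 55.5% to 74.7% in green, and 19719 were tested. The probes for the silenced genes do not check the labels. The Loxl2 probe had a log2 fold change of 0.11 in shLoxl2 cells (SE 0.12, limma adjusted p = 0.59) and was well above background in 2 of 4 shLoxl2 channels and 1 of 4 shGFP channels. The Snai1 probe was well above background in 0 of the 4 channels of the shSnail arrays. All shLoxl2 arrays were scanned on 1 day and both shSnail arrays on another, so that scan day and silenced group cannot be told apart. Over probes, the 2 dye-swapped arrays correlated at only 0.02 for shLoxl2 replicate 1 and at -0.03 for replicate 2. Part of each ratio stayed the same when the dyes were swapped between shLoxl2 arrays. Over probes, this dye effect had an SD of 0.46 (log2). It cancels in the shLoxl2 averages but not on the shSnail arrays, where it was removed in full, with scaled removal and no removal as alternatives. The slope of the shSnail ratios on it was 0.45, the factor used in scaled removal. After full removal the shSnail values correlated with the dye effect at -0.42 over probes, and with no removal at 0.36. Full removal thus took out more than that slope gives, and shSnail values after it still run against the dye effect.

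Crb3 had the largest fold change of the 9 genes in shLoxl2 cells. The shSnail arrays gave log2 ratios over shGFP of 0.02 and 0.10. The shLoxl2 arrays gave 2.37 and 2.22 with the silenced RNA in Cy3, and 2.34 and 2.40 with it in Cy5. All 4 shLoxl2 arrays lay far above both shSnail arrays, and the dye made little difference, with a dye effect of 0.04. In shLoxl2 cells Crb3 rose 5.03-fold (2.33 ± 0.029 on the log2 scale, SD, n = 2; limma SE 0.11 and adjusted p = 0.000594). The 2 replicate values were 2.35 and 2.31. The size depends on how background is handled, with 1.49 for no background subtraction (limma adjusted p = 0.00129) and 2.98 for the scanner software's own ratios (limma adjusted p = 0.0232). The probe (chromosome 17, 56750888 to 56750947, mm8) was well above background in both channels on all 6 arrays and saturated on none. In a bulk RNA sample, a change in the number of cells that express a gene and a change in RNA per cell cannot be told apart.

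In shSnail cells the Crb3 value was 0.02 (95% interval -0.30 to 0.34, limma adjusted p = 0.924), and the interval does not show that the level was equal. It was 0.04 after scaled removal of the dye effect and 0.06 without removal. With median centring in place of loess it was -0.77 (limma adjusted p = 0.0045), a setting in which the median of all probes was 0.10 and not -0.04. The difference between the silenced groups was tested on the 4 arrays whose silenced RNA was in Cy5. A dye effect cancels there only if it is equal in both groups, which the slope of 0.45 does not show. Crb3 was 4.95-fold lower in shSnail than in shLoxl2 cells (difference of log2 ratios -2.31, SE 0.15, 95% interval -2.69 to -1.92, limma adjusted p = 0.00892). Without shSnail replicate 1 that difference was -2.27 (limma adjusted p = 0.0581), and without shSnail replicate 2 it was -2.35 (limma adjusted p = 0.057).

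**Figure D2:**
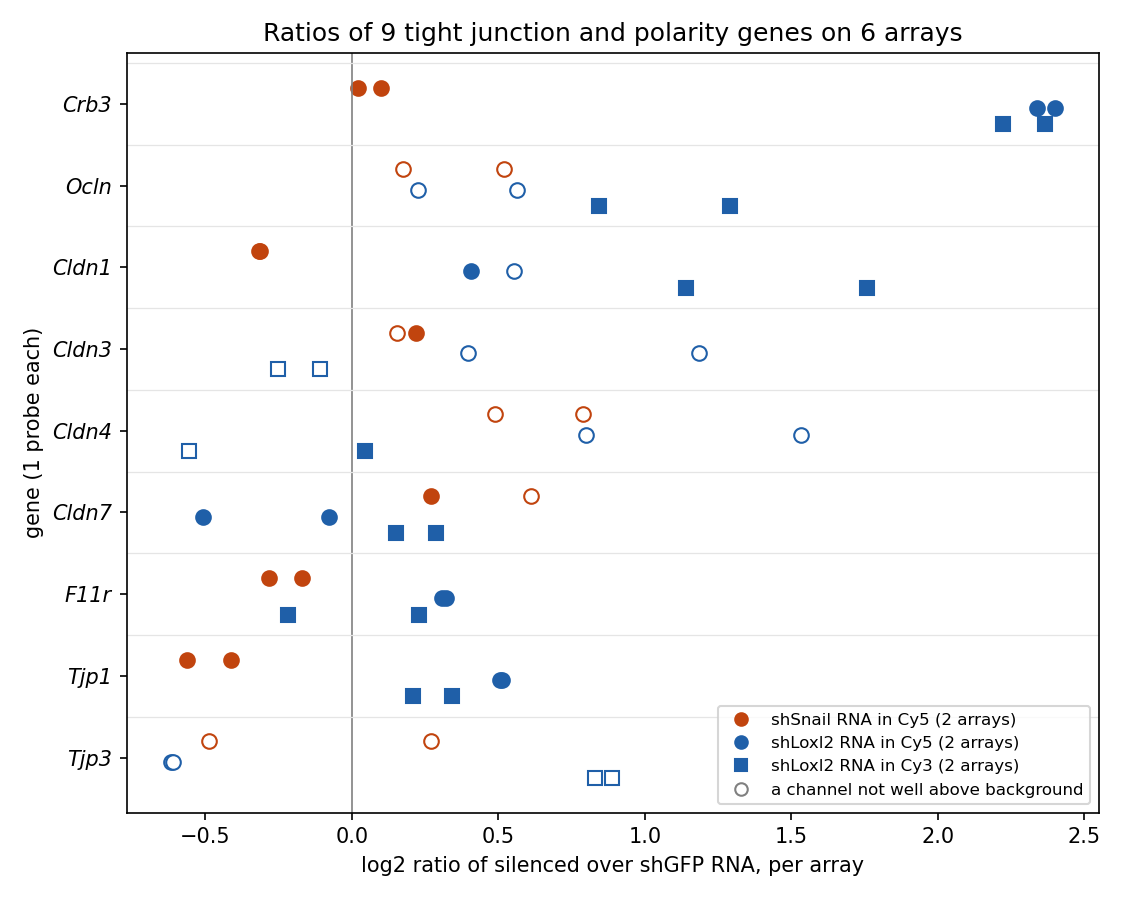
The log2 ratio of silenced over shGFP RNA on each array (horizontal axis) for the 9 genes (rows). Circles are arrays whose silenced RNA was in Cy5 (2 shSnail, 2 shLoxl2), squares the 2 shLoxl2 arrays with it in Cy3, and open symbols mark a channel not well above background. Crb3 lies between 2.22 and 2.40 on the shLoxl2 arrays, apart from 0.02 and 0.10 on the shSnail arrays.

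Of the 9 genes, 3 rose and 0 fell with shLoxl2 (adjusted p below 0.05 over all probes), where 8.01% of all probes rose and 5.83% fell. The risers were Crb3, Cldn1 and Ocln. The median of the 9 was 0.39 on the log2 scale, against -0.01 over all probes, and 8 of the 9 values were above 0. In shSnail cells 2 rose and 1 fell, where 8.77% of probes rose and 12.5% fell. Cldn7 and Ocln rose and Tjp1 fell there, and the median of the 9 was 0.02, against -0.04 over all probes. Between the silenced groups 0 of the 9 were higher and 3 were lower in shSnail cells, where 4.22% of probes were higher and 8.53% lower, namely Crb3, Cldn1 and Tjp1. The median difference was -0.54, against -0.04 over all probes. With the dye effect scaled, 1 rose (Cldn7) and 1 fell (Tjp1) in shSnail against shGFP, where 8.93% of probes rose and 14.2% fell. The same 3 as above were lower in shSnail than in shLoxl2 cells, where 4.59% were higher and 10.2% lower. With no removal 2 rose (Cldn4 and Cldn7) and 1 fell (Tjp1) in shSnail cells, where 13.0% of probes rose and 18.4% fell. Both comparisons with shGFP share that RNA as their other channel, so their values are not independent of each other.

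**Figure D3:**
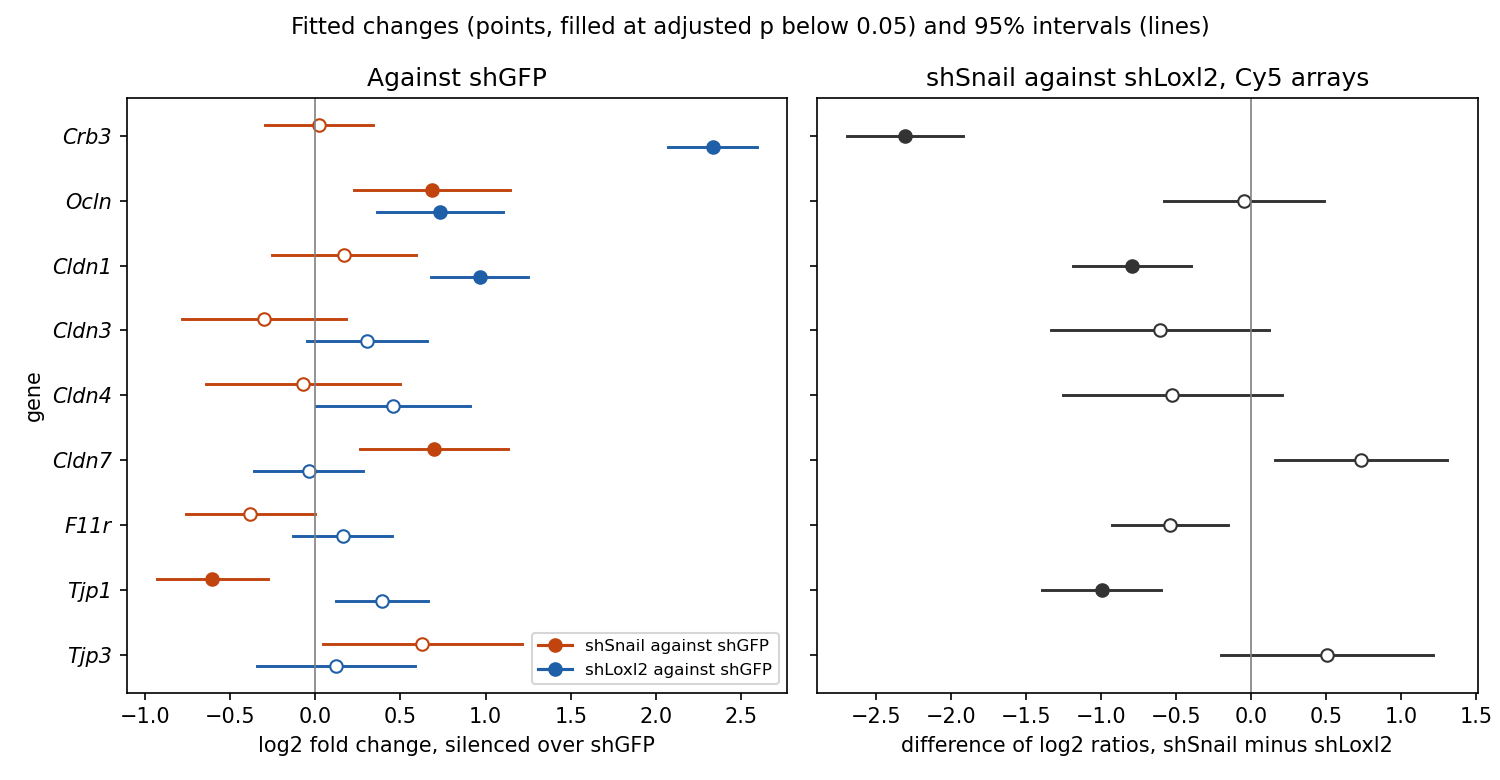
Fitted log2 fold changes with 95% intervals for the 9 genes (rows), in shSnail and shLoxl2 against shGFP (left) and as the difference of shSnail minus shLoxl2 ratios on the Cy5 arrays (right). Filled points passed at an adjusted p below 0.05. Crb3 stands at 2.33 in shLoxl2 and at 0.02 in shSnail.

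Among the proteins that form the junction strands, Ocln encodes occludin, a membrane-spanning protein of the strands. Its shSnail ratios were 0.52 and 0.18. The shLoxl2 ratios were 1.29 and 0.84 on the Cy3 arrays and 0.56 and 0.23 on the Cy5 arrays. Every array of both groups was above 0, and the shSnail values lay within the range of the shLoxl2 Cy5 arrays or just below it. In shLoxl2 cells Ocln rose 1.66-fold (log2 fold change 0.73, SE 0.15, limma adjusted p = 0.0296). That call was lost without shLoxl2 replicate 1 (0.54, limma adjusted p = 0.133) and with no background subtraction (0.20, limma adjusted p = 0.194), and the scanner software's own ratios gave 2.10 (limma adjusted p = 0.0701). In shSnail cells the fitted value was 0.68 (SE 0.19, limma adjusted p = 0.0484), but the shGFP channel was not well above background on either shSnail array. As a mean of the 2 arrays before dye removal, the lower bound for Ocln in shSnail over shGFP RNA was 1.18-fold, or 0.24 on the log2 scale. The channel means were 6.89 in shSnail and 6.54 in shGFP. The array with a ratio of 0.18 lay below that bound. The 95% interval of the fit without dye removal, -0.02 to 0.72, reached below 0, so a rise of that size is not shown. The bound takes, for the dim channel, the lowest signal that any probe well above background gave (the dim signal itself if that is higher). It is open to dye bias here, because the dyes were not swapped. With the dye effect scaled or not removed the fitted value was 0.50 (limma adjusted p = 0.0551) or 0.35 (limma adjusted p = 0.129). On all 4 Cy5 arrays the shGFP channel was not well above background, so the fitted difference between the silenced groups, -0.05 (95% interval -0.58 to 0.49, limma adjusted p = 0.897), rests on a dim channel.

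Claudins are the strand proteins that set which ions pass between cells, and Cldn1 is needed for the water barrier of mouse epidermis. Cldn1 had ratios of -0.32 and -0.31 on the shSnail arrays. On the shLoxl2 arrays it had 1.76 and 1.14 in Cy3 and 0.41 and 0.55 in Cy5. The 2 groups did not overlap, and the Cy3 arrays lay above the Cy5 arrays, with a dye effect of -0.48. In shLoxl2 cells Cldn1 rose 1.95-fold (log2 fold change 0.96, SE 0.12, limma adjusted p = 0.00641). That value was 0.35 with no background subtraction and 2.53 with the scanner software's ratios, and passed in both (limma adjusted p = 0.0197 and 0.0296). In shSnail cells its sign turned with the dye treatment, at 0.17 with full removal (limma adjusted p = 0.545), -0.10 with scaled removal and -0.32 with none. Cldn1 was lower in shSnail than in shLoxl2 cells, with a difference of -0.80 (SE 0.16, limma adjusted p = 0.036), and the call was lost when either shSnail array was left out (-0.79 and -0.80, limma adjusted p = 0.244 and 0.223). With the scanner software's ratios that difference was -2.44 (limma adjusted p = 0.0640).

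Cldn3 and Cldn4, neighbours on chromosome 5, encode claudins known as receptors of a clostridial enterotoxin. Cldn3 had ratios of 0.15 and 0.22 on the shSnail arrays. Its shLoxl2 ratios were -0.25 and -0.11 in Cy3 and 0.40 and 1.18 in Cy5. Cldn4 had 0.49 and 0.79 on the shSnail arrays, against -0.55 and 0.05 in Cy3 and 0.80 and 1.53 in Cy5 on the shLoxl2 arrays. Both genes were higher on the Cy5 than on the Cy3 arrays of the same shLoxl2 RNA, with dye effects of 0.49 and 0.71. In shLoxl2 cells neither passed, with Cldn3 at 0.31 (limma adjusted p = 0.233) and Cldn4 at 0.46 (95% interval 0.00 to 0.91, limma adjusted p = 0.177). Both values rest in part on dim channels. Cldn3 was well above background in 2 of 4 shLoxl2 and 2 of 4 shGFP channels there, and Cldn4 in 3 and 2. In shSnail cells Cldn3 was at -0.30 (limma adjusted p = 0.336) and Cldn4 at -0.07 (limma adjusted p = 0.867) after full dye removal. With no dye removal Cldn4 passed at 0.64 (limma adjusted p = 0.0455). The shGFP channel of Cldn4 was not well above background on either shSnail array, with channel means of 7.38 in shSnail and 6.74 in shGFP on the log2 scale. No bound is given, because the dye effect of 0.71 runs the same way and is larger than that gap.

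Cldn7, a claudin that is also found along the lateral membrane, had ratios of 0.61 and 0.27 on the shSnail arrays. The shLoxl2 ratios were 0.15 and 0.29 in Cy3 and -0.08 and -0.51 in Cy5. Both shSnail arrays lay above both shLoxl2 arrays of the same orientation. On the shSnail array with 0.61 the shGFP channel was not well above background, so the fold in shSnail cells rests in part on a dim channel. Cldn7 rose 1.62-fold in shSnail cells (log2 fold change 0.70, SE 0.18, limma adjusted p = 0.0388). It passed with the dye effect scaled (0.56, limma adjusted p = 0.0312) and with no removal (0.44, limma adjusted p = 0.0494), but not with any 1 replicate of either silenced group left out (0.52 to 0.87). With the scanner software's own ratios the shSnail value was 0.65 and did not pass (limma adjusted p = 0.177). In shLoxl2 cells Cldn7 was at -0.04 (limma adjusted p = 0.879). The difference of 0.73 between the silenced groups (95% interval 0.16 to 1.31) did not pass (limma adjusted p = 0.094) and passed with the replicate number as a block (limma adjusted p = 0.0494).

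F11r encodes the junctional adhesion molecule JAM-A, which acts early in junction assembly. Its shSnail ratios were -0.28 and -0.17, and its shLoxl2 ratios were -0.22 and 0.23 in Cy3 and 0.31 and 0.32 in Cy5. It was well above background in every channel. Neither test against shGFP passed, at -0.38 in shSnail (95% interval -0.76 to -0.0034, limma adjusted p = 0.137) and 0.16 in shLoxl2 (95% interval -0.13 to 0.45, limma adjusted p = 0.428). With median centring F11r passed in shSnail cells (-0.65, limma adjusted p = 0.0131). The difference between the silenced groups was -0.54 (limma adjusted p = 0.0784), and it passed with no background subtraction (-0.41, limma adjusted p = 0.041), with median centring (-0.66, limma adjusted p = 0.0269) and with the stricter filter (limma adjusted p = 0.0276).

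Tjp1 and Tjp3 encode the scaffolds ZO-1 and ZO-3, which bind claudins through PDZ domains. Tjp1 had ratios of -0.56 and -0.41 on the shSnail arrays. The shLoxl2 arrays gave 0.34 and 0.21 in Cy3 and 0.50 and 0.51 in Cy5. The groups lay on opposite sides of 0, and the probe was well above background in every channel. Tjp1 fell in shSnail cells (log2 fold change -0.60, SE 0.14, limma adjusted p = 0.0245), at 1.52-fold lower than in shGFP RNA. The call stood with scaled dye removal (-0.54, limma adjusted p = 0.0119) and with none (-0.49, limma adjusted p = 0.0215), and was lost when any 1 replicate of either silenced group was left out (-0.68 to -0.53). In shLoxl2 cells Tjp1 was at 0.39 (SE 0.11) and did not pass (limma adjusted p = 0.0734), whereas it passed with no background subtraction (0.34, limma adjusted p = 0.0215) and with the stricter filter on dim probes (limma adjusted p = 0.0285). Tjp1 was 1.99-fold lower in shSnail than in shLoxl2 cells (difference -0.996, SE 0.16, limma adjusted p = 0.0239), and not without shSnail replicate 1 (-0.92, limma adjusted p = 0.189) or 2 (-1.07, limma adjusted p = 0.138).

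The Tjp3 ratios followed the dyes. They were -0.49 and 0.27 on the shSnail arrays. On the shLoxl2 arrays they were 0.89 and 0.83 in Cy3 and -0.62 and -0.61 in Cy5, a dye effect of -0.74. On the shSnail arrays neither RNA gave a signal well above background, and no fold is given there. On the shLoxl2 arrays it was well above background in 2 of 4 shLoxl2 channels and in 0 of 4 shGFP channels. The 2 above background were the Cy5 arrays, with the negative ratios. The fitted value was 0.12 (95% interval -0.34 to 0.59, limma adjusted p = 0.714), which gives no bound.

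**Figure D4:**
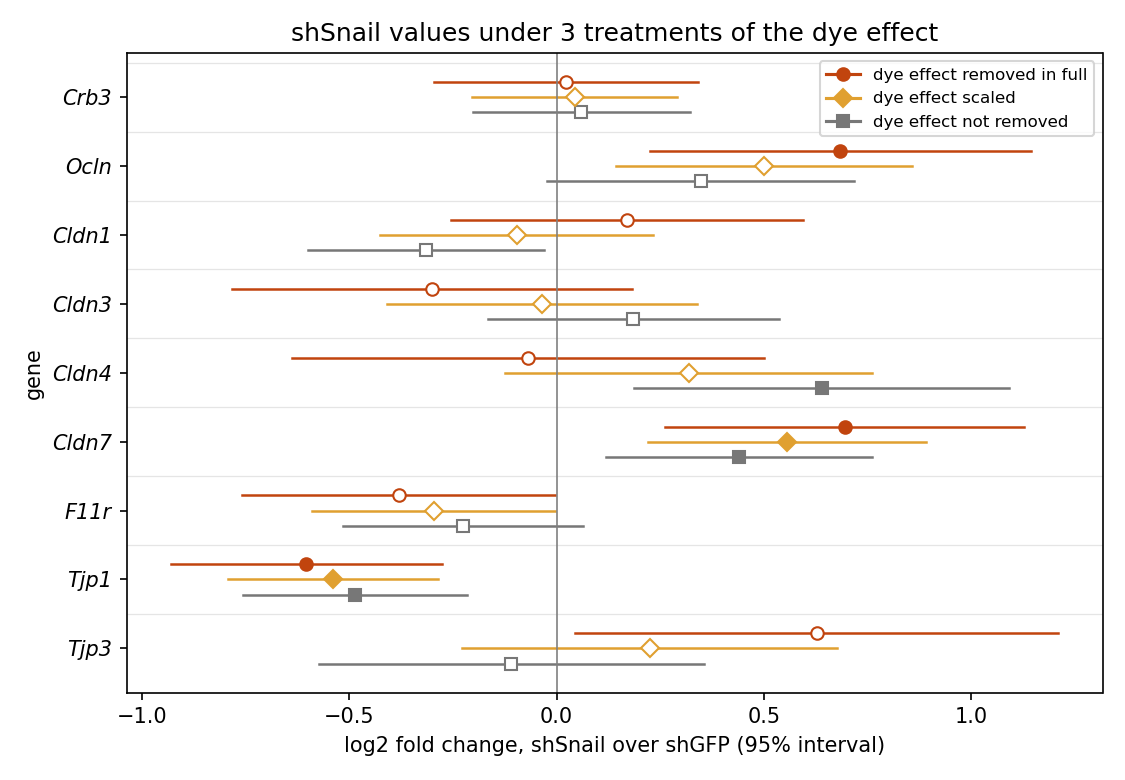
Log2 fold changes of the 9 genes (rows) in shSnail over shGFP with 95% intervals, with the dye effect removed in full, scaled or not removed. Filled symbols passed at an adjusted p below 0.05. Tjp1 (-0.60, -0.54, -0.49) and Cldn7 (0.70, 0.56, 0.44) passed under each, whereas Ocln passed with full removal and Cldn4 with none.

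Other genes of the junction and of polarity were read from a list of 75, of which 73 were on the array and 71 were tested, 1 probe a gene. In shSnail cells 3 rose and 15 fell, where 8.77% of all probes rose and 12.5% fell, with a median of -0.19, against -0.04 over all probes. With the dye effect scaled, 4 rose and 14 fell (8.93% and 14.2% of all probes), with a median of -0.12. With no removal 5 rose and 18 fell (13.0% and 18.4% of all probes), with a median of 0.01. In shLoxl2 cells 9 rose and 3 fell, where 8.01% of all probes rose and 5.83% fell, with a median of -0.01, the same as over all probes. Between the silenced groups 2 were higher and 14 lower in shSnail cells, where 4.22% of all probes were higher and 8.53% lower, with a median of -0.28, against -0.04 over all probes.

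The list was read by layer of the junction, and the counts of each layer stand against the same shares of all probes. Layer counts in shSnail cells are those with full dye removal unless stated, and other genes can pass under the alternatives. Genes of the list given below with a value and no array ratios were named after their values were seen. Of 7 genes of the Crumbs complex tested, which holds the partners of Crb3, 2 fell and 0 rose in shSnail cells, and 0 changed in shLoxl2 cells by limma (0 at an unadjusted p below 0.05). Lin7c, a PDZ adaptor of that complex, had ratios of -2.89 and -2.36 on the shSnail arrays and between -0.68 and -0.03 on the shLoxl2 arrays. It fell in shSnail cells (log2 fold change -2.58, SE 0.25, limma adjusted p = 0.00177), and its second probe fell less (-1.02, limma adjusted p = 0.0111). The other was Mpp5, the Crb3-binding scaffold also called Pals1, at -1.13 (limma adjusted p = 0.0176). Of the 7 Par complex genes, 0 changed in any of the 3 comparisons with full dye removal in shSnail cells, with values between -0.35 and 0.45 against shGFP and 1 of 7 at an unadjusted p below 0.05 in each (limma). With scaled removal Pard6a (0.48) and Cdc42 (0.41) passed in shSnail cells, and with none Pard6a (0.58), Cdc42 (0.38) and Prkci (-0.49).

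Of 8 genes of the Scribble module and polarity kinases, 4 fell in shSnail cells (12.5% of all probes fell) and 2 rose in shLoxl2 cells (8.01% rose). Mark3, a kinase related to the polarity protein Par-1, had ratios of -1.28 and -1.09 on the shSnail arrays, and between -0.60 and 0.13 on the shLoxl2 arrays. It fell in shSnail cells (-1.49, SE 0.15, limma adjusted p = 0.00186). The other 3 that fell were Erbin (-1.38), Dlg1 (-1.01) and Scrib (-0.90), scaffolds of the basolateral side. The 2 that rose in shLoxl2 cells were the kinase gene Stk11 (0.65) and Llgl1 (0.47), a homologue of the fly polarity gene lgl. Of 14 plaque proteins, 0 rose and 4 fell in shSnail cells (8.77% and 12.5% of all probes), and 3 rose and 0 fell in shLoxl2 cells (8.01% and 5.83%).

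Cgnl1, which encodes paracingulin, had ratios of -1.17 and -1.16 on the shSnail arrays and between 0.77 and 1.13 on the shLoxl2 arrays. By its brightest probe it fell in shSnail cells (-1.06, limma adjusted p = 0.00391) and rose in shLoxl2 cells (0.97, limma adjusted p = 0.00552), a difference of -2.02 (limma adjusted p = 0.0127). Of its other 2 probes, 1 also fell in shSnail cells (-0.58, limma adjusted p = 0.0481) and the other was at 0.18. Neither passed in shLoxl2 cells, at 0.03 and -0.23, so the rise there depends on the probe. Amotl1, which encodes an angiomotin-like scaffold, had ratios of -0.88 and -0.85 on the shSnail arrays and between 0.62 and 0.86 on the shLoxl2 arrays. It was lower in shSnail than in shLoxl2 cells by -1.62 (limma adjusted p = 0.0164), while its second probe was at -0.65 (limma adjusted p = 0.0831). Against shGFP its brightest probe was at -0.89 in shSnail and 0.73 in shLoxl2 cells, and both passed, whereas its second probe was at -0.84 (limma adjusted p = 0.0511) and -0.19 (limma adjusted p = 0.529), so the rise depends on the probe. Ybx3 (-1.24) and Magi2 (-0.95) also fell in shSnail cells.

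Of 10 other membrane proteins, 1 rose and 2 fell in shSnail cells (8.77% and 12.5% of all probes), and 1 rose and 2 fell in shLoxl2 cells (8.01% and 5.83%). Jam2, a junctional adhesion molecule related to F11r, had ratios of -1.26 and -1.24 on the shSnail arrays and between -1.47 and -1.24 on the shLoxl2 arrays. It fell against shGFP in both, to -1.18 in shSnail (SE 0.13, limma adjusted p = 0.00266) and -1.34 in shLoxl2 (SE 0.11, limma adjusted p = 0.00231). Cxadr, the coxsackievirus and adenovirus receptor, had ratios of -2.22 and -2.30 on the shSnail arrays and between -0.94 and -0.44 on the shLoxl2 arrays. It was at -2.35 in shSnail cells (SE 0.16, limma adjusted p = 0.00128) and lower than in shLoxl2 cells by -1.65 (limma adjusted p = 0.0171), but its second probe was at 0.17 (limma adjusted p = 0.528) and 0.72 (limma adjusted p = 0.0648). Bves, which encodes a membrane protein also called Popdc1, rose in shLoxl2 cells (0.58), though not on every array. In shSnail cells its direction turned with the dye treatment, at 1.03 with full removal (limma adjusted p = 0.00587), 0.19 with scaled removal (limma adjusted p = 0.307) and -0.50 with none (limma adjusted p = 0.0255). Of 17 other claudins, 2 rose (Cldn19 at 0.84 and Cldn2 at 0.62) and 1 fell (Cldn8 at -0.53) in shSnail cells with full dye removal. With scaled removal Cldn19 passed (0.57, limma adjusted p = 0.0465), while Cldn2 was at 0.36 and Cldn8 at -0.08 and neither passed. With no removal none of the 3 passed, at 0.36, 0.14 and 0.30, so that the sign of Cldn8 turned. Other claudins passed with no removal, namely Cldn5 (0.83), Cldn18 (0.50), Cldn10 (0.43) and Cldn23 (-0.62). In shLoxl2 cells 0 rose and 1 fell, the claudin-domain gene Cldnd1 (-0.62). Cldn2, which encodes a channel-forming claudin, and Patj, a scaffold of the Crumbs complex, were the 2 genes of the list that were higher in shSnail than in shLoxl2 cells, by 0.91 and 1.21.

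Of 8 transcription factors known to act on junction genes, 0 rose and 2 fell in shSnail cells (8.77% and 12.5% of all probes), and 3 rose and 0 fell in shLoxl2 cells (8.01% and 5.83%). Ehf, an epithelial ETS factor, had ratios of -0.51 and -0.56 on the shSnail arrays and 2.49, 1.03, 1.17 and 1.30 on the shLoxl2 arrays. It rose in shLoxl2 cells (1.5, SE 0.17, limma adjusted p = 0.00578) and was lower in shSnail than in shLoxl2 cells by a fitted -1.78 (limma adjusted p = 0.0149). On both shLoxl2 Cy5 arrays behind that difference the shGFP channel was not well above background. Ovol1, a zinc-finger factor of epidermal differentiation, had ratios of 0.07 and 0.34 on the shSnail arrays and between 0.22 and 1.44 on the shLoxl2 arrays. It rose in shLoxl2 cells (1.01, SE 0.15, limma adjusted p = 0.0106), as did Klf4 (0.68). The 2 that fell in shSnail cells were Klf5 (-1.51) and Grhl1 (-1.40).

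**Figure D5:**
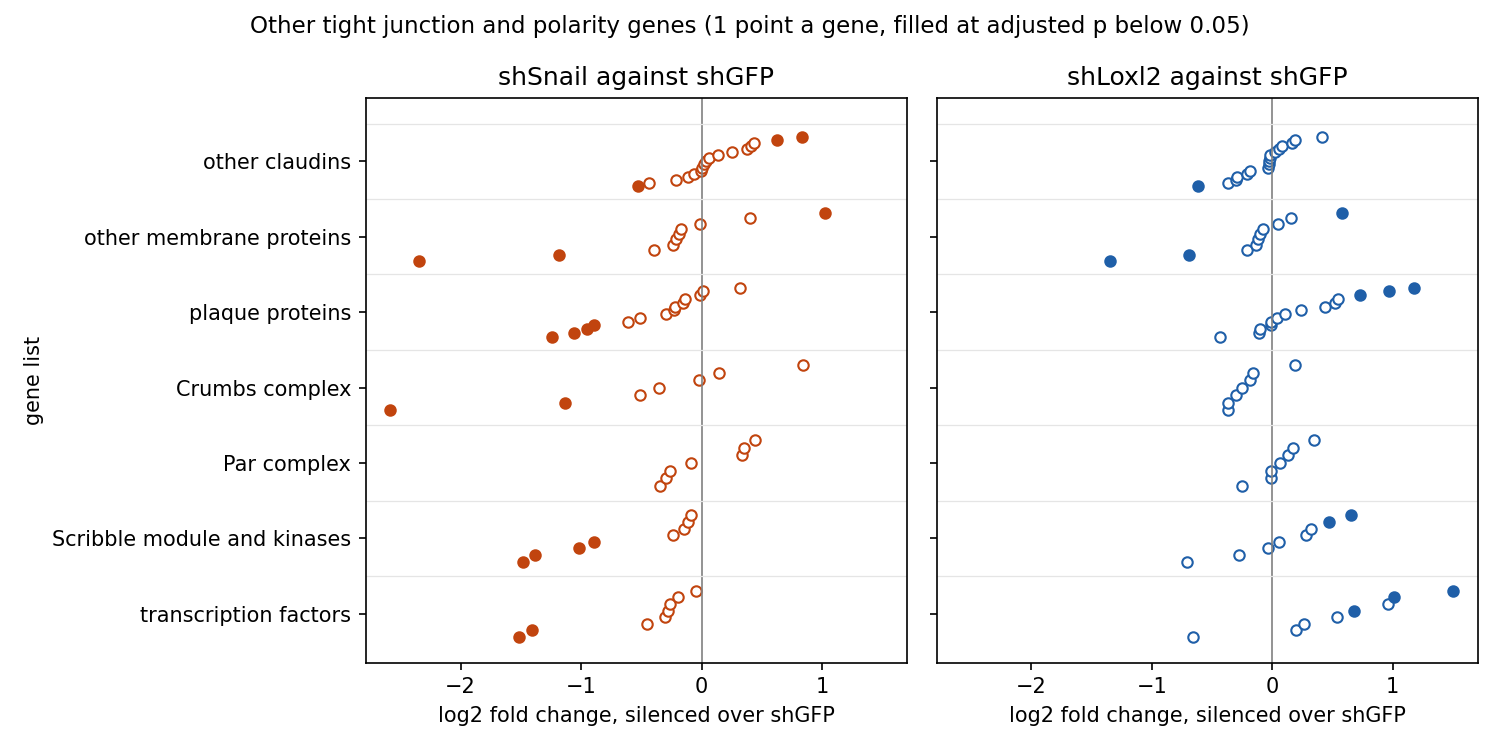
Log2 fold changes over shGFP of 71 other junction and polarity genes (1 point a gene) by list (rows), in shSnail (left) and shLoxl2 (right) cells. Filled points passed at an adjusted p below 0.05. In shSnail 3 rose and 15 fell, and in shLoxl2 9 rose and 3 fell.

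The labels name a cell line but no tissue. Of 8 epithelial markers on the array, 5 were well above background in shGFP RNA on all 6 arrays, as were 5 of 8 mesenchymal and 3 of 6 leukocyte markers. None of 7 endothelial markers was, and Tek was above background nowhere. Epithelial markers changed in both silenced groups. With full dye removal Krt8 rose by 1.12 in shSnail cells and Dsp, Krt19 and Krt14 were at -1.83, -0.84 and -0.82. That is 1 of 8 rising and 3 falling, where 8.77% of all probes rose and 12.5% fell. With scaled removal Epcam (0.38) and Krt5 (-0.62) also passed, and with none Epcam (0.54), Krt5 (-0.63) and Krt18 (-0.67). Krt18 was at 0.20 with full removal, so that its sign turned. In shLoxl2 cells Epcam rose by 1.51 and the E-cadherin gene Cdh1 by 1.08, while Dsp was at -0.59. That is 2 of 8 rising and 1 falling, where 8.01% of all probes rose and 5.83% fell. The log2 of the summed intensity of the 8 markers was 16.5 on both shSnail channels, 16.7 to 17.3 in shLoxl2 RNA and 16.8 to 17.4 in shGFP RNA. These sums were not corrected for the dye effect. Both shSnail channels were in Cy5, whereas the shLoxl2 and shGFP ranges hold both dyes. The differences between the sums, and the part of these markers in the junction results, were not tested.

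The named genes whose ratios lay nearest to those of Crb3 over the 6 arrays, among 13497 genes searched by Euclidean distance, were Blnk (0.347), Fam149a (0.46), Pcolce (0.489), Sprr2a1 (0.524) and Cx3cl1 (0.648). Blnk had ratios of 0.16 and 0.20 on the shSnail arrays and between 2.13 and 2.29 on the shLoxl2 arrays. The others were between -0.19 and 0.37 on the shSnail arrays and between 1.81 and 2.75 on the shLoxl2 arrays.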

How the data were processed

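Both channels of 6 Agilent arrays were read from the scanner files. Spot intensity values were deposited as Feature Extraction output, of version 9.5.1.1 going by the headers and 6.1.1 per the submitters' processing notes. The deposited log10 ratios of the same software served as an alternative after turning them to log2. One column of the authors' deposited values, that of shSnail replicate 2, holds the values of shSnail replicate 1 (100% of spots match within 0.006, against 9.37% for its own array), so these values were used only for shLoxl2.

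Mean signals were background-corrected by normexp with an offset of 50, which shrinks the ratios of dim probes, and normalized by loess within arrays in limma 3.58.1 (R 4.3.3, data.table in version 1.17.8), with 736 control spots left out of the fit. Averaging repeated spots turned 21318 spots into 20868 probes. Testing needed a signal well above background in either channel of 2 or more arrays, which left 19719. Dyes in the labels set each ratio's direction. The 2 arrays of a shLoxl2 number counted as a technical dye swap and were averaged with the sign turned, and shGFP RNA as 1 control, so its own spread is left out. For shSnail, the dye effect of a probe came from its swapped shLoxl2 ratios. The contrast of shSnail with shLoxl2 rested on 4 Cy5 arrays. Testing was by lmFit and eBayes with Benjamini-Hochberg adjustment over all probes. The fits were also run on simulated data in which every array carried the dye effect in full. That setting differs from the slope of 0.45 found here, so it does not check full removal for shSnail.

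The 9 genes and all lists were chosen with earlier results of these data known. Of the 75 other genes, up to 5 by smallest p per comparison were named, among those past the threshold with 1 direction on every array, by the brightest probe. One gene that this rule picks is not reported here. Marker lists were epithelial, mesenchymal, endothelial and leukocyte. Of the probes, 14711 were named through RefSeq accessions and the rest as in the files. Probe positions are those of the files (mm8). Each array had its own slide. Alternatives covered background, normalization, filter, dye treatment, pairing and each replicate left out.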

Additional observations from a re-analysis of the deposited data

Results flagged for a closer look

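The response of 3 genes differed between the silenced groups by the direct test over the 4 Cy5 arrays (limma, adjusted over all probes). Crb3 differed by -2.31 (shSnail minus shLoxl2, log2 scale), Tjp1 by -0.996 and Cldn1 by -0.80. Each was lower on both shSnail arrays than on both shLoxl2 arrays. With scaled dye removal and all 6 arrays the differences were -2.29, -0.93 and -1.06, and each passed (limma adjusted p = 0.00108, 0.00908 and 0.0137). Each call was lost when either shSnail array was left out, where 47 or 39 of all probes were called in place of 2516. Scan day differed with the silenced group, and the 2 cannot be told apart.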

How the results depend on the processing

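The number of arrays limits precision, and dim members are limited by signal over background, since only Crb3, Tjp1 and F11r were well above background in both channels on all 6 arrays. Slide or scan day as a block was not run, because no slide held over 1 array and no scan day over 1 silenced group. In shLoxl2 against shGFP, 2728 probes and 3 members changed. The scanner software's log ratios gave 774 probes. The authors' value table gave 0 probes and 0 members by limma with 3472 probes at an unadjusted p below 0.05 (Crb3 at 2.98, limma adjusted p = 0.105). Leaving out a replicate gave 1733 to 2789 probes, the lowest without shLoxl2 replicate 1, and 2 to 3 members. Over 11 alternatives Crb3 lay between 1.49 and 2.98 and lost its call with the authors' table only. Cldn1 was not tested with the filter on both channels. Over its 10 alternatives it lay between 0.35 and 2.53 and lost its call with the authors' table only. Tjp3 was at -0.038 with no background subtraction, and Cldn7 ran from -0.11 to 0.036 with a replicate left out.

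In shSnail against shGFP, 4203 probes and 3 members changed, and 41.1% of the called probes were higher. Median centring gave 8703 probes (53.6% higher) and 6 members. The scanner software's ratios gave 0 members and 24.2% higher, with the median of all probes at -0.28, and the filter on both channels gave 1 member. Leaving out a replicate gave 1584 to 3144 probes and 0 to 1 members. The 1 member was Tjp3, at 1.01 without shSnail replicate 1, a fit that leaves 1 array in that group. Neither Tjp3 channel was well above background on either shSnail array. Ocln, Cldn7 and Tjp1, the members that changed with all arrays, each lost the call whichever replicate was left out. Values that turned their sign were as follows. With no background subtraction Crb3 was at -0.0068, Cldn1 at -0.055 and Cldn4 at 0.085. With median centring Crb3 was at -0.77, Cldn3 at 0.35 and Cldn4 at 0.35. With the scanner's ratios Crb3 was at -0.17, Cldn4 at 0.50 and Tjp3 at -0.53. With no dye removal Cldn1 was at -0.32, Cldn3 at 0.18, Cldn4 at 0.64 and Tjp3 at -0.11, and with scaled removal Cldn1 was at -0.10 and Cldn4 at 0.32. With a replicate left out Crb3 ran from -0.027 to 0.074, Cldn1 from -0.022 to 0.36 and Cldn4 from -0.22 to 0.080. The cause was not tested.

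In shSnail against shLoxl2, 2516 probes and 3 members differed, with 33.1% of the probes higher. Median centring gave 9360 probes (53.6% higher) and 6 members, and the scanner's ratios 1 member and 18.0% higher. Leaving out a replicate gave 39 to 4283 probes and 0 to 6 members, the lowest without a shSnail replicate, which leaves 1 array in that group, assumed to vary like the other. Ocln was at 0.059 with no background subtraction and ran from -0.22 to 0.13 with a replicate left out, Cldn3 was at 0.14 and Cldn4 at 0.034 with median centring, and Tjp3 was at -0.70 with the scanner's ratios. With the replicate block, 2709 probes and 4 members differed, Cldn7 being the addition (0.73, limma adjusted p = 0.0494). The labels give the groups only a shared number, and the correlation of same-numbered deviations was 0.21. Over all results and alternatives, 206 values kept direction and side of the threshold, 32 lost the call, 14 gained it and 27 turned the sign.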

Other observations

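The shGFP channel was not at the same intensity on the 2 sets of arrays for every gene. For Crb3, on the log2 scale it averaged 7.41 on the shSnail arrays and 8.38 on the shLoxl2 arrays, while the silenced channel averaged 7.47 in shSnail and 10.7 in shLoxl2 RNA. The shGFP channel of Tjp1 averaged 10.8 on both sets, and that of F11r 14.2 on both. That of Cldn7 averaged 7.06 on the shSnail and 7.94 on the shLoxl2 arrays, that of Ocln 6.54 and 7.21, and that of Cldn4 6.74 and 7.01. For Cldn3 the 2 means were 7.67 and 7.17, for Cldn1 7.81 and 7.47, and for Tjp3 6.57 and 6.73. These differences were not tested.

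Mesenchymal markers went both ways. Of 8 tested, 1 rose and 2 fell in shSnail cells with full dye removal (8.77% and 12.5% of all probes). They were S100a4 at 1.57, Pdgfra at -1.18 and the fibronectin gene Fn1 at -2.27. With no removal Col1a1 (0.63) and Cdh2 (-1.12) passed too. In shLoxl2 cells 1 rose and 1 fell (8.01% and 5.83%), S100a4 at 0.996 and Pdgfra at -0.82. The log2 of the summed intensity of the 8 markers was 16.2 on both shSnail channels, 15.5 to 16.1 in shLoxl2 and 14.8 to 15.8 in shGFP RNA. These sums were not corrected for the dye effect, and their differences were not tested. Of 5 leukocyte markers, 0 changed in shSnail cells by limma with full dye removal (8.77% of all probes rose and 12.5% fell). There Cd68, at 0.41, was the 1 with an unadjusted p below 0.05. It passed in shSnail cells with scaled removal (0.40, limma adjusted p = 0.0465) and with none (0.39, limma adjusted p = 0.0493). In shLoxl2 cells 1 rose and 0 fell (8.01% and 5.83%), Cd68 at 0.66. The log2 of the summed intensity of the leukocyte markers was 11.7 to 11.9 in shSnail, 10.8 to 11.5 in shLoxl2 and 10.6 to 11.8 in shGFP RNA, again not corrected for the dye effect. Of 5 endothelial markers tested by limma, 0 passed in either comparison with shGFP with full dye removal, and 0 had an unadjusted p below 0.05. The shares of all probes are those given for the leukocyte markers. With no removal Vwf passed in shSnail cells (0.67, limma adjusted p = 0.0205).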
